A study of Mus musculus with 4 samples.

Results

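The CD209 and macrophage galactose lectins are described here: 7 of the 27998 genes in the deposited matrix, found by symbol (Cd209a, Cd209b, Cd209d, Cd209f, Cd209g, Clec10a and Mgl2). The study sequenced messenger RNA of single cells from B16-F10 tumours, a transplantable mouse melanoma line grown in C57BL/6 mice. The groups were 2 libraries from Adar1-null tumours (S1 and S2) and 2 from control tumours (S3 and S4). All came from implants in matrigel, taken on day 14, digested for 10 min at 37 °C with collagenase P plus DNase I and enriched for CD45-positive cells on an Optiprep gradient and by magnetic selection. The sources used here do not say how the control line was made, how many clones were used, how old the mice were or whether each library is 1 animal. The labels give the null genotype to the tumours, and say nothing of the genotype of the infiltrating host cells, which carry the lectins. Below, Adar1-null or control before a cell type names the tumours that the cells came from.

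CD209 proteins are C-type lectins, membrane receptors that bind mannose- and fucose-rich sugars through a calcium-dependent domain. Their genes lie in a duplicated array, and mouse Cd209a is the dendritic cell member, Cd209b (SIGN-R1) a macrophage receptor for microbial polysaccharides, and Cd209d (SIGN-R3) a receptor linked to defence against mycobacteria. Clec10a (MGL1) and Mgl2 (MGL2) are galactose-type lectins. Mgl2 binds galactose and N-acetylgalactosamine, which tumour mucins expose. Both genes are known markers of alternatively activated macrophages and of dermal dendritic cells.

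In GENCODE vM21 (GRCm38), the 5 Cd209 members lie on chromosome 8 and are annotated as protein-coding. Cd209a spans 3743397 to 3748984, Cd209d 3871824 to 3878555, Cd209b 3917655 to 3926844 and Cd209f 4102787 to 4105835, all on the minus strand. Cd209g, at 4134098 to 4137707, is on the plus strand, so it and Cd209f are neighbours 28262 bases apart that are transcribed away from each other. Mgl2 (70130329 to 70137550) and Clec10a (70156197 to 70170834) are neighbours on the plus strand of chromosome 11, 18646 bases apart.

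Promoter windows of 250 bases before to 50 bases after the RefSeq start (GRCm38.p6) were found for 6 of the 7 members, all but Clec10a. Those of Cd209f (chr8:4105715-4106014, minus strand) and Cd209g (chr8:4134486-4134785, plus strand) are shown because these genes were found in the same cells; capitals mark the 180-base run that is identical in both.
Cd209f: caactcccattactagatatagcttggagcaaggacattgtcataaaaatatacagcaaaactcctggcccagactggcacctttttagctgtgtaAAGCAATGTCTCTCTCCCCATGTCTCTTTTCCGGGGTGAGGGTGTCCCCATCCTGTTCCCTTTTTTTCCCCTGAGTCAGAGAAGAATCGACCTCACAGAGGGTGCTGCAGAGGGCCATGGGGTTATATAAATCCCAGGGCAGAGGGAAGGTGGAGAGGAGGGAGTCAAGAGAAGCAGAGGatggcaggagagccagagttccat
Cd209g: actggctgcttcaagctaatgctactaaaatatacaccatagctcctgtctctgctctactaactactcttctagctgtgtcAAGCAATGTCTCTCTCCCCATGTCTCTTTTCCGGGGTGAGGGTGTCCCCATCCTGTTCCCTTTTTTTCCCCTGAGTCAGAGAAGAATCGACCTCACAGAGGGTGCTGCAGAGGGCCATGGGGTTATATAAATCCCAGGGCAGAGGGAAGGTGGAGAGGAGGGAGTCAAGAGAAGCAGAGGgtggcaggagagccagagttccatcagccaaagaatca
The Cd209g window lies inside the longer GENCODE span of that gene. The run starts at base 97 of the Cd209f window and at base 83 of the Cd209g window. No other pair of the 6 windows shared a run of over 17 bases. That 17-base run, in capitals in the next windows, joins Cd209a (chr8:3748935-3749234, minus strand), which was highest in dendritic cells, and Cd209b (chr8:3926792-3927091, minus strand), which was highest in macrophages.
Cd209a: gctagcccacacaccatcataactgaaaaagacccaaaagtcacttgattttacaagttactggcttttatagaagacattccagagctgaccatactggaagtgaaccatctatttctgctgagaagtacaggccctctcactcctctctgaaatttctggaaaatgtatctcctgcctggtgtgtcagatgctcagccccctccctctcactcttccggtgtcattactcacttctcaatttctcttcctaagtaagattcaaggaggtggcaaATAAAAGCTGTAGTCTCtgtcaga
Cd209b: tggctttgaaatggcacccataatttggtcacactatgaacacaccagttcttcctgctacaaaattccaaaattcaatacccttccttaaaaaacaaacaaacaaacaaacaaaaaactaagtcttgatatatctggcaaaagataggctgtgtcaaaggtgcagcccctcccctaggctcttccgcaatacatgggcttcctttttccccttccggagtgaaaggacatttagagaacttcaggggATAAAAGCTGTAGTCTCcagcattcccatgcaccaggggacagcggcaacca
Read on both strands, TATAAA was found once in each of the Cd209a, Cd209f and Cd209g windows and in 13.6% of all 32851 promoter windows of this length. The MAF half-site TGCTGAC, in 4.67% of all windows, was in none of the 6, which says only that these letters are not in these windows. In the last 500 bases of the longest coding transcript, no Cd209 member and not Mgl2 shared a 50-base word with another gene of the array or pair. For Clec10a 20.4% of such words also occurred in Mgl2 transcripts, so part of the Clec10a reads may have been split between both or dropped.

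Each unique molecular identifier (UMI) counts 1 captured molecule at its 3′ end, so levels are given as CPM, the UMI count of a gene scaled to a common total of UMIs, with no scaling by length. The libraries held 23850251 to 33636018 UMIs in 8838 barcodes, and 8569 cells were kept, with medians per cell of 7918 and 7618 UMIs in Adar1-null libraries, against 8788 and 7854 UMIs in control libraries. Of the barcode sequences, 38 occurred in more than 1 library. Library S4 stood apart: it held 759 of the 1005 resident-type macrophages defined in the next paragraph. The list of erythroid markers took 8.53e-06% and 3.85e-05% of UMIs in Adar1-null libraries, against 0.000182% and 0.0802% in control libraries, and the neutrophil list 0.00158% and 0.00227% in Adar1-null libraries, against 0.00185% and 0.0150% in control libraries, S4 being the highest in both. Their part in the results was not tested. The targeted gene, Adar, had 13.6 and 16.1 CPM in Adar1-null libraries, against 15.4 and 14.9 CPM in control libraries. In the melanoma gate it had 95 and 119 UMIs in 352 and 282 Adar1-null cells, against 101 and 132 UMIs in 256 and 291 control cells. If the 3′ tag lies outside the deleted part, its count does not test the deletion, and the place of the deletion was not examined here.

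Cells were gated by how many markers of each cell type had at least 2 UMIs, and no lectin member was a marker. Type 2 conventional dendritic cells (cDC2, 266 cells) needed 2 of 10 markers, among them Flt3, Ccl17 and Ifitm1, and at most 3 of 10 macrophage markers. Resident-type macrophages needed 5 of the 10 macrophage markers and 6 of 13 markers such as Folr2, Cbr2 and Vsig4, which tissue macrophages carry. They were divided into 143 cells with Lyve1 and Cd163 and 862 others. Levels of gate markers are partly set by the gates: C1qa, a complement subunit of macrophages, was at 6518 CPM in the Lyve1+ Cd163+ gate and at 71.1 CPM in cDC2, while Flt3, a dendritic cell growth factor receptor, had 0 UMIs in the Lyve1+ Cd163+ gate and was at 38.5 CPM in cDC2, below the 159 CPM of type 1 conventional dendritic cells. The other macrophage gates were Arg1 and Spp1, Vcam1 and Lpl, monocyte and macrophage markers together (334 cells), and other macrophages. A Retnla and Ear2 gate (71 cells) set no minimum of macrophage markers. Monocytes, other dendritic cells, melanoma and stromal cells were gated too, and the T or NK gate also took B cells. Mixed cells (197) passed for several lineages, or for neutrophil, mast cell or erythroid markers, and 687 cells fell in no gate.

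Cd209a was highest in cDC2. It had 705 and 579 CPM in Adar1-null cDC2, against 669 and 527 CPM in control cDC2, and the groups overlapped. The cDC2 gate held 266 of the 8569 kept cells but 52.3% of all 2195 Cd209a UMIs. Next in order among the gates were monocytes, at 58.1 ± 32.3 CPM (SD over 4 libraries), whose range did not reach that of cDC2 (620 ± 81.5 CPM). Below monocytes, the ranges of neighbouring gates overlapped. A UMI of Cd209a was found in 51.1% of cDC2 (exact binomial 95% interval 44.9 to 57.3, counting error only; median depth 6410.5 UMIs), against 2.46% of melanoma cells, which should lack it (median depth 32607 UMIs). Among the 136 positive cDC2 the median was 5 UMIs and the highest 52, and 26 cells had a single UMI.

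Cd209d was the paralog shared by dendritic cells and macrophages. It had 105 and 81.7 CPM in Adar1-null cDC2, against 90.5 and 132 CPM in control cDC2. In the Lyve1+ Cd163+ gate it had 854 and 461 CPM in Adar1-null libraries, against 364 and 432 CPM in control libraries. The Adar1-null values there rest on 10 and 5 cells. Of all 2156 Cd209d UMIs, 24.7% lay in the Lyve1+ Cd163+ gate, 52.9% in other resident macrophages and 8.91% in cDC2. Cd209b, Cd209f and Cd209g had 9, 3 and 2 UMIs in all 266 cDC2 together.

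Cd209f had the highest level of any member in any gate. It had 3469 and 2901 CPM in Adar1-null Lyve1+ Cd163+ cells, against 2533 and 1698 CPM in control cells. Other resident macrophages had 785 and 495 CPM in Adar1-null libraries, against 720 and 430 CPM in control libraries. The ranges of these gates did not overlap, and the next gate, other macrophages, was at 6.30 ± 3.98 CPM over the 4 libraries. A UMI was found in 36.9% of the resident cells (interval 33.9 to 40.0; median depth 7188 UMIs), against 1.09% of T or NK cells (median depth 8514 UMIs).

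Cd209g and Cd209b followed Cd209f in the same gates at lower levels. Cd209g had 1313 and 678 CPM in Adar1-null Lyve1+ Cd163+ cells, against 989 and 621 CPM in control cells. Cd209b had 109 and 407 CPM in Adar1-null Lyve1+ Cd163+ cells, against 187 and 249 CPM in control cells. These were 10 and 15 UMIs in Adar1-null libraries, against 38 and 210 UMIs in control libraries, and 1 cell of S2 held 13 of its 15. The ratio of Cd209f to Cd209g UMIs in the resident gates was 2.77 and 3.52 in Adar1-null libraries, against 2.63 and 2.60 in control libraries. The ratio of Cd209f to Cd209d was less even, at 3.84 and 5.34 in Adar1-null libraries, against 6.59 and 2.92 in control libraries. All 4 macrophage Cd209 genes were highest in the Lyve1+ Cd163+ gate, above other resident cells without overlap of the 4 libraries. For Cd209b the margin was small: in S1 it had 109 CPM (10 UMIs), against 94.5 CPM in other resident cells (46 UMIs, 27 in 1 cell).

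Clec10a, the galactose-type lectin MGL1, was the most widely found member, with 9060 UMIs in 2238 cells. In Lyve1+ Cd163+ cells it had 864 and 1003 CPM in Adar1-null libraries, against 1082 and 1068 CPM in control libraries, and other resident macrophages had 364 and 1011 CPM in Adar1-null libraries, against 744 and 730 CPM in control libraries. The ranges of these gates overlapped, unlike those of the 4 Cd209 genes. It then had 253 ± 35.5 CPM in cDC2 and 231 ± 206 CPM in 33 plasmacytoid dendritic cells, where 39 UMIs were counted in all. Every macrophage gate had at least 50.2 CPM on average, against 8.02 ± 2.06 CPM in T or NK cells and 2.73 ± 1.89 CPM in melanoma cells. A UMI of Clec10a was found in 86.7% of resident cells (interval 84.4 to 88.7) and in 7.62% of the much deeper melanoma cells. With each cell thinned to 4000 UMIs these shares were 76.1% and 1.19%.

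Mgl2 had no single gate. It had 207 and 191 CPM in Adar1-null cDC2, against 204 and 206 CPM in control cDC2. In the Retnla Ear2 gate it had 250 and 287 CPM in Adar1-null libraries, against 334 and 26.0 CPM in control libraries, with 5 UMIs in S4. Resident macrophages together had 147 and 575 CPM in Adar1-null libraries, against 157 and 39.9 CPM in control libraries. Migratory dendritic cells, the Ccr7 cells, had 49 Mgl2 UMIs and 4 of Clec10a. Of these Mgl2 UMIs 37 lay in S3, where 1 cell held 31, and 10 of the 115 cells were positive. The ratio of Clec10a to Mgl2 UMIs was 1.44 and 1.27 in Adar1-null cDC2, against 1.26 and 1.03 in control cDC2, while in resident macrophages it was 3.01 and 1.75 in Adar1-null libraries, against 5.07 and 19.5 in control libraries.

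**Figure D1:**
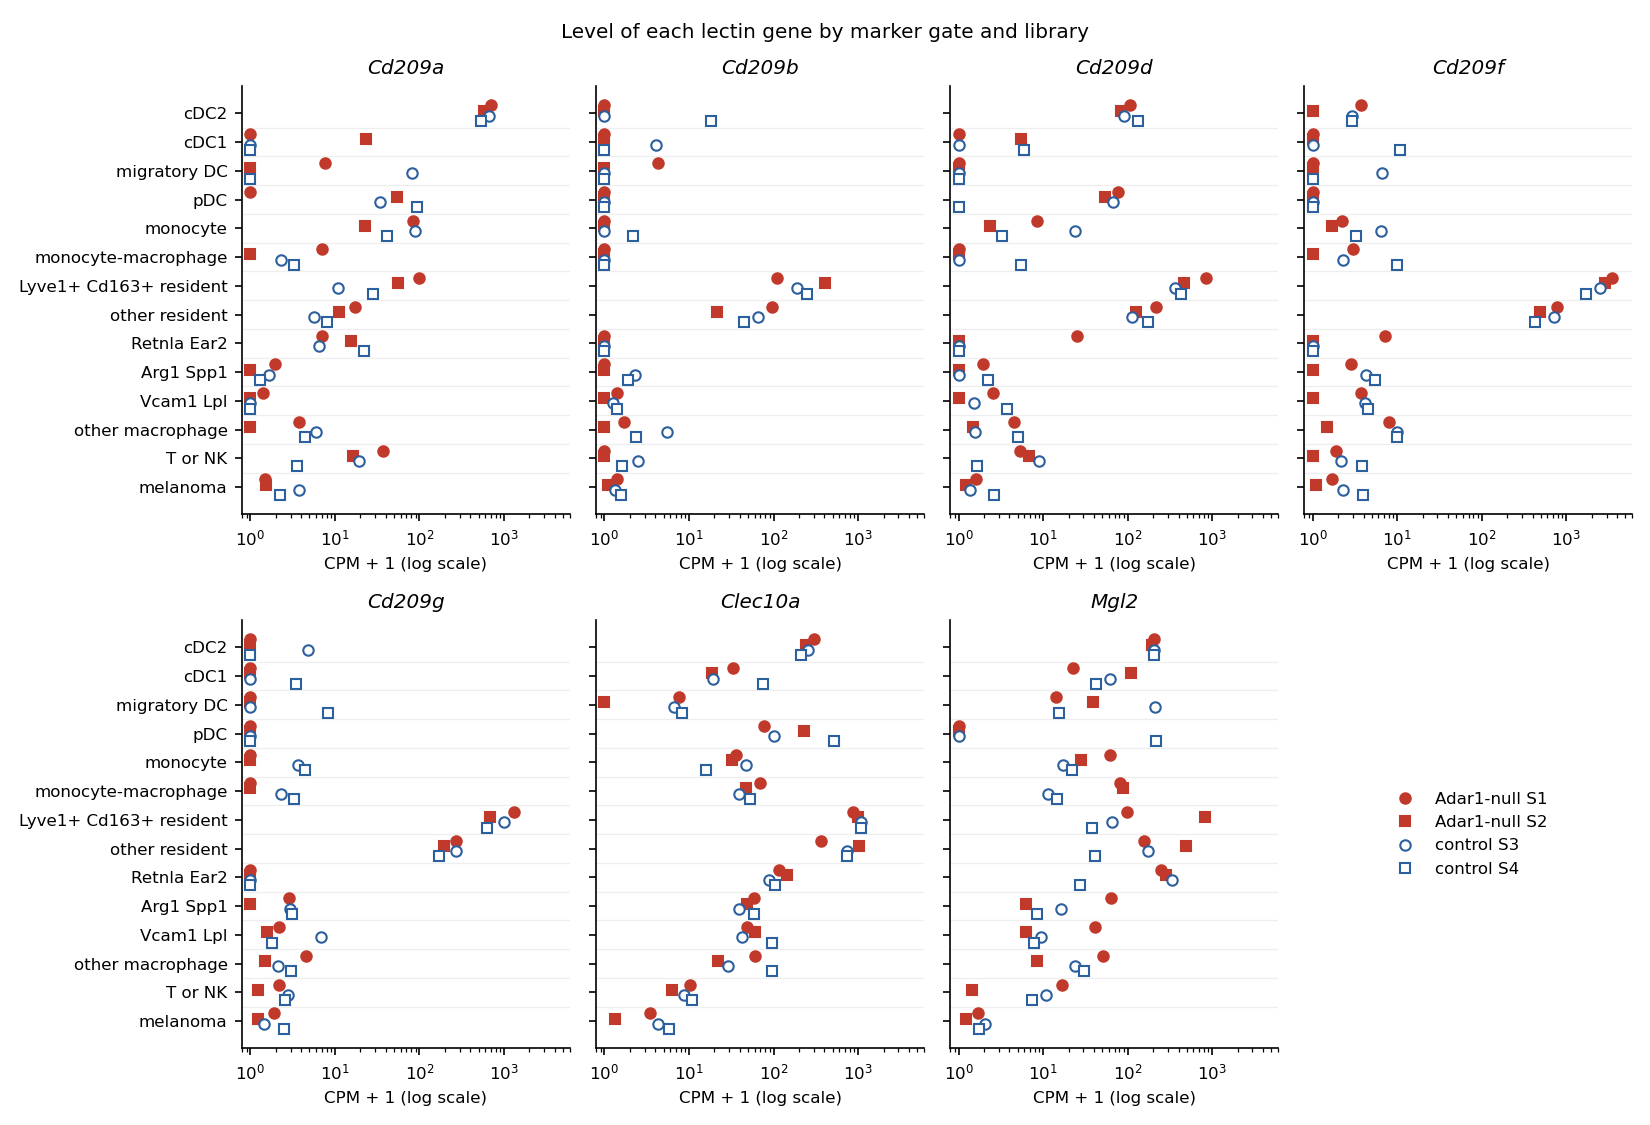
CPM plus 1 (log scale) of each lectin gene in 14 gates, 1 point per library, with Adar1-null libraries filled and above control libraries, which are open. Cd209a peaks in cDC2, Cd209b, Cd209d, Cd209f and Cd209g in the Lyve1+ Cd163+ gate, and Mgl2 is spread over several gates.

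Over macrophages ordered by the number of resident markers they held, the lectins differed in where their levels went up. Among 930 cells with 0 or 1 of the 13 markers, Cd209f was at 1.96 CPM and Clec10a at 27.2 CPM. Among 676 cells with 4 or 5 markers they were at 6.52 and 93.0 CPM, and among 375 cells with 6 or 7 at 188 and 408 CPM. In the 213 cells with 10 to 13 markers Cd209f reached 1854 CPM, Cd209g 684, Cd209d 565, Cd209b 246 and Clec10a 1180 CPM. Mgl2 was at 37.1 CPM with 0 or 1 marker, 19.4 CPM with 2 or 3 and 87.9 CPM with 10 or more. Cells at the gate's minimum of 6 markers had 111 CPM of Cd209f, against 9.44 CPM in the cells 1 marker below. These are levels over pooled cells and carry no test.

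**Figure D2:**
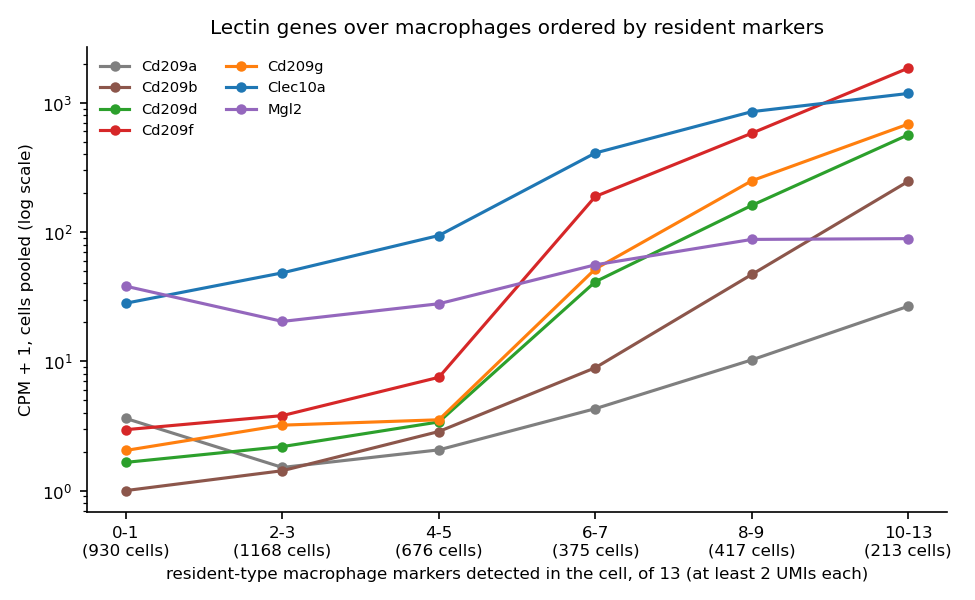
CPM plus 1 (log scale, cells of all libraries pooled) of each lectin gene against the number of 13 resident-type markers in a macrophage. Clec10a is already at 93.0 CPM with 4 or 5 markers, where Cd209f is at 6.52 CPM, and Cd209f is above Clec10a only in the last group.

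Which paralogs shared cells was counted next. In the resident gates, 278 of the 301 Cd209g cells (92.4%) also held a Cd209f UMI, while the product of both shares would give 111 cells. The share was 93.3% and 100% in Adar1-null libraries, where the second rests on 8 cells, against 91.8% and 92.1% in control libraries. Of the Cd209b cells 90.8% and of the Cd209d cells 88.1% held Cd209f as well. In the Lyve1+ Cd163+ gate, 46 of 143 cells (32.2%) had UMIs of all of Cd209b, Cd209d, Cd209f and Cd209g, and 40 cells (28.0%) had none of them. Of all 1005 resident cells 57.3% had none and 9.85% had all of them. Of Mgl2-positive resident cells 94.7% held Clec10a, against 86.7% of all resident cells. Of Clec10a cells 24.8% held Mgl2, which was found in 228 of all 1005 resident cells. This share of Clec10a cells was 47.4% and 72.2% in Adar1-null libraries, against 42.5% and 18.0% in control libraries. Mgl2 itself was found in 30 of 70 and 13 of 20 resident cells of Adar1-null libraries, against 63 of 156 and 122 of 759 of control libraries. These shares thus lay near those over all resident cells.

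In cDC2 a different pair of Cd209 genes overlapped. Of the 58 Cd209d cells 49 (84.5%) held Cd209a, against 51.1% of all cDC2, and the share was 100% and 85.7% in Adar1-null libraries, against 85.7% and 76.2% in control libraries. Of the Cd209a cells 64.0% held Clec10a and 33.1% Mgl2. All of Cd209a, Cd209d, Clec10a and Mgl2 were found in 14 of 266 cDC2 (5.26%), and 79 cells (29.7%) had none. In the resident gates Cd209a was found in 64 of 1005 cells, and 87.5% of these held Cd209f. A share of this kind depends on depth, since a cell of few UMIs can miss a gene it transcribes.

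**Figure D3:**
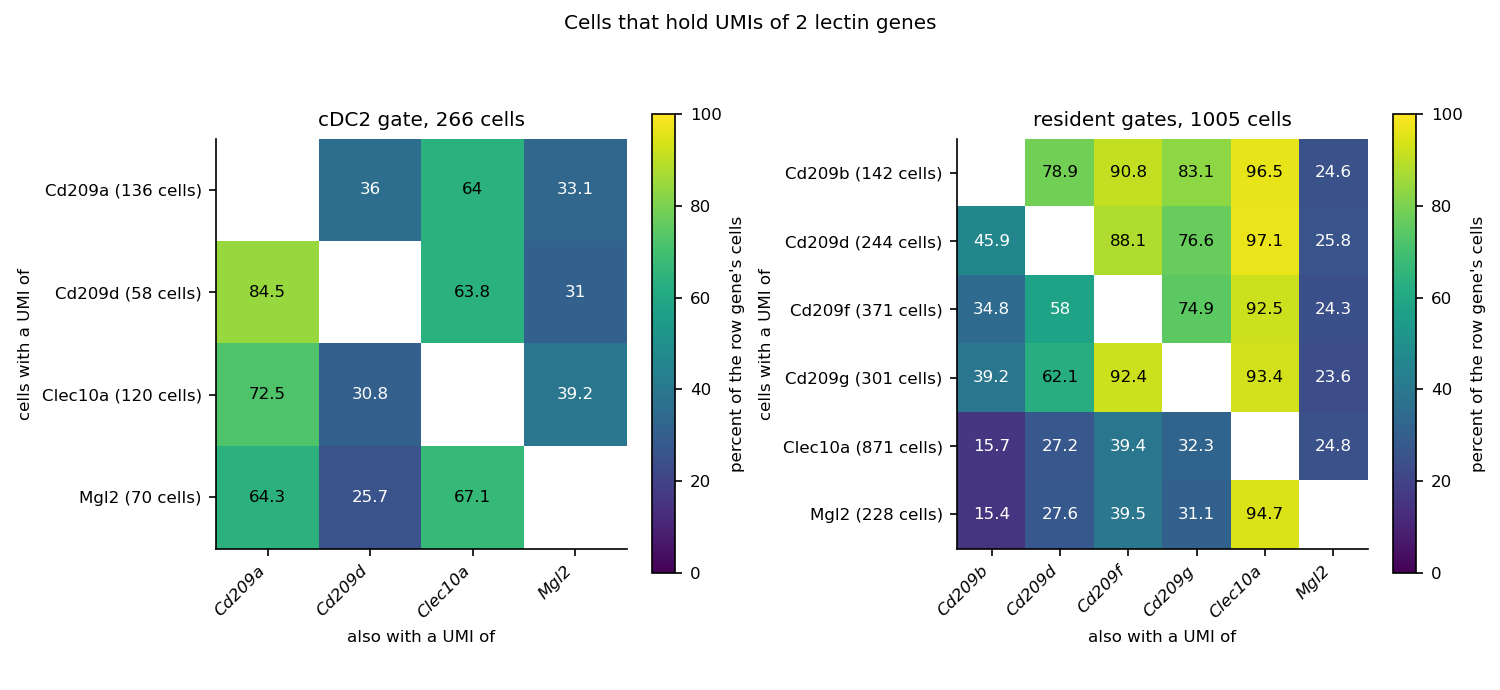
Percent of the cells with a UMI of the row gene that also had a UMI of the column gene, in the cDC2 gate (266 cells) and the resident gates (1005 cells), libraries pooled. In resident cells 92.4% of Cd209g cells held Cd209f, and in cDC2 84.5% of Cd209d cells held Cd209a.

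The genes most like each member were sought over 47 sums of at least 20 cells (14 gates by library, which share cells of 1 suspension and differ in depth), as Pearson r of log2(CPM + 1). The Lyve1+ Cd163+ gate entered from S3 and S4 alone, both control, and other resident macrophages from S1, S3 and S4. Cd209f, Cd209g and Cd209b shared Tnfrsf17 and Chp2 among their 3 leading genes, with r of 0.94, 0.93 and 0.92 for Tnfrsf17, the BCMA receptor known from plasma cells. C6, a complement component, was at 0.93 for Cd209g and 0.89 for Cd209b, and Vsig4, a complement receptor that was also a gate marker, at 0.92 for Cd209f. Cd209f and Cd209g themselves were at 0.91. For Cd209d the nearest gene was its neighbour in the array Cd209e (0.79), before Asgr2 (0.78) and Rcn3 (0.78). Cd209a was nearest to Cdh1, which encodes E-cadherin (0.79), Cd7, a cDC2 gate marker (0.73), and Ngfr (0.73). Clec10a was nearest to the leukotriene receptor gene Cysltr1 (0.85), Fcgrt (0.83) and Ap2a2 (0.83), and Mgl2 to Prcp (0.79), Taok3 (0.77) and Tppp3 (0.76). Among members, Cd209a was at 0.61 with Cd209d, at 0.03 with Cd209g and at 0.11 with Cd209f.

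Adar1-null and control tumours were compared first over all kept cells. Clec10a had 36.6 and 26.9 CPM in Adar1-null libraries, against 67.6 and 179 CPM in control libraries (log2 change -2.03 ± 0.58, standard error). Cd209f had 754 and 173 UMIs in Adar1-null libraries, against 1552 and 3952 UMIs in control libraries (-2.28 ± 0.86). Cd209g (-2.28 ± 0.90), Cd209b (-2.51 ± 0.86) and Cd209d (-1.86 ± 0.84) lay the same way. For these 5 members both Adar1-null libraries were below both control libraries, which held for 14.5% of the 13467 genes tested; the opposite order, shown by no member, held for 34.4%. In such sums, fewer cells of a type and less RNA per cell cannot be told apart. None of the 5 passed the quasi-likelihood test of edgeR after Benjamini-Hochberg adjustment (adjusted p between 0.543 and 0.578), nor did any other gene (0%). At an unadjusted p under 0.05, 401 genes (2.98%) were higher and 824 (6.12%) lower, Clec10a and Cd209b among the lower ones, and DESeq2 called 6 higher and 87 lower, with Cd209b as the 1 member (adjusted p = 0.0361). Without S3 edgeR called 5 higher and 135 lower and no member. With each library left out in turn the estimates lay between -3.64 (without S1) and -1.52 (without S4) for Cd209b, -2.68 (without S1) and -0.69 (without S4) for Cd209d, and -3.70 (without S1) and -1.56 (without S2) for Cd209f. Cd209g lay between -3.91 (without S1) and -1.52 (without S2), and Clec10a between -2.58 (without S3) and -1.14 (without S4).

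Cd209a and Mgl2 did not follow them. Cd209a had 25.1 and 20.7 CPM in Adar1-null libraries, against 25.0 and 15.0 CPM in control libraries (0.14 ± 0.28), and Mgl2 had 31.0 and 18.3 CPM in Adar1-null libraries, against 26.4 and 16.9 CPM in control libraries (0.13 ± 0.36). The groups overlapped for both genes, and neither passed edgeR's test after that adjustment (adjusted p = 0.879 and 0.921). The ratio of Clec10a to Mgl2 UMIs in the whole infiltrate was 1.18 and 1.47 in Adar1-null libraries, against 2.56 and 10.6 in control libraries.

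**Figure D4:**
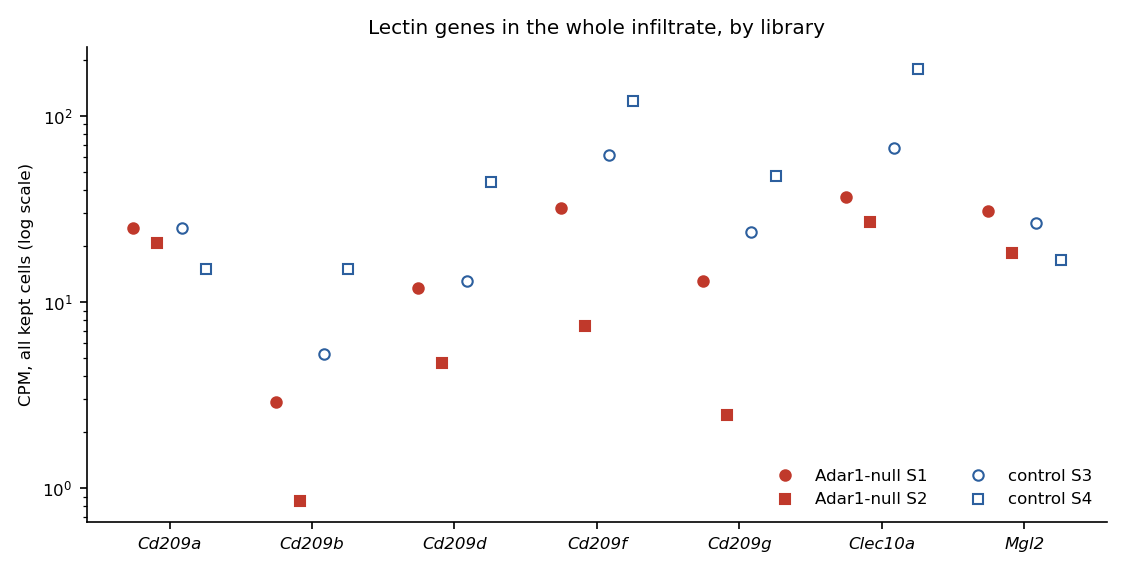
CPM of each lectin gene over all kept cells (log scale), 1 point per library, Adar1-null left of control. Cd209b, Cd209d, Cd209f, Cd209g and Clec10a are lower in both Adar1-null libraries, with S2 lowest and S4 highest, and Cd209a and Mgl2 overlap.

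The number of resident macrophages moved with these values. They made up 3.61% and 1.03% of kept cells in Adar1-null libraries, against 8.02% and 27.6% in control libraries, an exact two-sided permutation p of 0.333, the smallest that 6 splits of 4 libraries allow. Of all their 13 markers together, the share of library UMIs was 0.118% and 0.0458% in Adar1-null libraries, against 0.160% and 0.539% in control libraries. Lyve1+ Cd163+ cells numbered 10 and 5 in Adar1-null libraries, against 23 and 105 in control libraries. The cDC2 share, where Cd209a lies, was 2.48% and 3.67% in Adar1-null libraries, against 3.55% and 2.84% in control libraries. Over cells outside the resident gates, a comparison added after seeing the data, the log2 changes were -0.60 ± 0.23 for Clec10a, -0.68 ± 0.18 for Cd209d, -1.71 ± 0.59 for Cd209g, -2.15 ± 0.65 for Cd209b and -2.71 ± 0.51 for Cd209f, and none passed edgeR's test with Benjamini-Hochberg adjustment (adjusted p = 0.999 for each). Of the 6431 Cd209f UMIs, 5844 lay in the resident gates. Of the 587 outside them, 395 lay in mixed cells, 198 of these in S3, where 1 cell held 121. Mixed cells also held 177 of the 295 Cd209g UMIs outside the resident gates, 32 of 88 for Cd209b, 68 of 482 for Cd209d and 255 of 2900 for Clec10a. Their part in these changes was not tested.

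Within the resident gates no Cd209 member had a negative estimate. Cd209f had 1209 and 1158 CPM in Adar1-null resident cells, against 1006 and 605 CPM in control resident cells (0.52 ± 0.25). Cd209d (0.57 ± 0.25), Cd209b (0.42 ± 0.26) and Cd209g (0.32 ± 0.26) also had positive estimates, and Clec10a was at -0.21 ± 0.33. The cell with most Cd209d held 61 of 182 UMIs in S1 and 13 of 29 in S2. In control libraries it held 28 of 197 (S3) and 71 of 1266 (S4). The cell with most Cd209b held 27 of 56 UMIs in S1 and 13 of 17 in S2. In control libraries it held 16 of 108 (S3) and 19 of 442 (S4). Cd209a, at 29.4 and 22.4 CPM in Adar1-null resident cells, against 5.42 and 9.84 CPM in control cells, was at 1.66 ± 0.49. These values rest on 17 and 3 Cd209a UMIs in 8 and 2 Adar1-null cells, against 7 and 60 UMIs in 5 and 49 control cells, and 1 cell of S1 held 5 of its 17 UMIs. With each library left out in turn, Cd209b lay between 0.29 and 0.64, Cd209d between 0.18 (without S1) and 0.84 (without S4), Cd209f between 0.22 (without S4) and 0.92 (without S3), and Cd209g between 0.020 (without S4) and 0.70 (without S3). For Cd209a, Cd209b, Cd209d and Cd209f both Adar1-null libraries were above both control libraries, which held for 18% of all 6783 genes. In other resident cells alone, the groups overlapped for Cd209b, Cd209d and Cd209f. In Lyve1+ Cd163+ cells alone they overlapped for Cd209b, and Cd209a kept the order in both gates. Lyve1+ Cd163+ cells were 5 of the 20 resident cells in S2 and 10 of 70 in S1. They were 23 of 156 in S3 and 105 of 759 in S4, and the part of this mix was not tested. No gene passed edgeR's test with Benjamini-Hochberg adjustment (0%; 133 genes, 1.96%, higher and 174 genes, 2.57%, lower at an unadjusted p under 0.05, with Cd209a and Cd209d among the higher ones; 0 by DESeq2). The fit used a minimum of 20 cells per library, met exactly by S2. Mgl2 was at 1.74 ± 1.29, and without S3 at 2.92 with an adjusted p of 0.0416 by the same edgeR test, 1 of 73 genes called there; the S2 cell with most Mgl2 held 21 of 77 UMIs.

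Within cDC2 no member passed the test. Cd209a was at 0.02 ± 0.23, Clec10a at 0.11 ± 0.24, Mgl2 at -0.13 ± 0.23 and Cd209d at -0.36 ± 0.31. None passed edgeR's test with Benjamini-Hochberg adjustment (adjusted p = 0.9998 for each), nor did any of 4872 genes (0%; 96 genes, 1.97%, higher and 81 genes, 1.66%, lower at an unadjusted p under 0.05, no member among them; 0 by DESeq2). S1 held 48 cells of this gate.

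**Figure D5:**
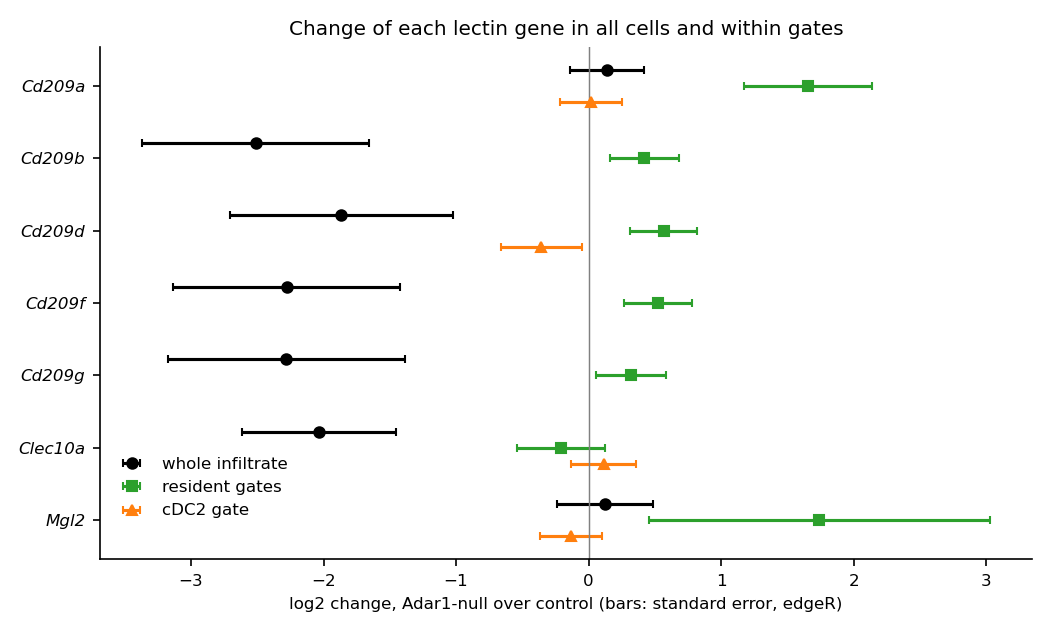
Log2 change of each lectin gene, Adar1-null over control, with a standard error derived from edgeR's F statistic. Circles are all kept cells, squares the resident gates and triangles the cDC2 gate. The estimates of Cd209b, Cd209d, Cd209f and Cd209g are below 0 over all cells and above 0 within the resident gates, and none passed the test.

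Mgl2 was higher in Adar1-null libraries in cells that carried both monocyte and macrophage markers. In this gate of 334 cells it had 40 and 84 UMIs in Adar1-null libraries, against 8 and 6 UMIs in control libraries. This was 80.3 and 87.5 CPM in Adar1-null libraries, against 10.4 and 13.6 CPM in control libraries, with no overlap, an order that 18.2% of genes shared (log2 change 2.82 ± 0.33, Benjamini-Hochberg adjusted p = 0.0354 in the quasi-likelihood test of edgeR). It was the only gene of 5467 called (0.0183% higher, 0% lower; at an unadjusted p under 0.05, 2.67% higher and 2.41% lower; DESeq2 called 4 genes, Mgl2 at an adjusted p of 0.00791). A few cells carried it: 12 of 69 and 12 of 124 cells were positive in Adar1-null libraries, against 6 of 88 and 2 of 53 in control libraries, and 1 cell of S2 held 62 of its 84 UMIs. Without the cell of most Mgl2 UMIs in each library the change was 2.11 and was not called (adjusted p = 0.865 by the same test). Clec10a in this gate was at 0.34 ± 0.31 and was not called.

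In the other gates with at least 50 cells in every library no member passed. Mgl2 had 61.2 and 27.1 CPM in Adar1-null monocytes, against 16.2 and 20.7 CPM in control monocytes, and the groups did not overlap, as for 16.8% of genes (1.14 ± 0.43, unadjusted p under 0.05). In Vcam1 Lpl macrophages it had 39.9 and 5.24 CPM in Adar1-null libraries, against 8.48 and 6.71 CPM in control libraries. By edgeR with Benjamini-Hochberg adjustment 0% of 6114 genes in monocytes, of 8930 in Vcam1 Lpl and of 7965 in other macrophages were called, and DESeq2 called 0, 1 and 0. At an unadjusted p under 0.05, 2.63% of genes were higher and 2.19% lower in monocytes, 1.43% higher and 1.39% lower in Vcam1 Lpl macrophages, and 2.4% higher and 2.4% lower in other macrophages. In Arg1 Spp1 macrophages, tested with at least 20 cells per library, Mgl2 had 63.4 and 5.35 CPM in Adar1-null libraries, against 15.1 and 7.54 CPM in control libraries (2.05 ± 0.91, adjusted p = 0.999 by edgeR). Without S1, which leaves 1 Adar1-null library, the change of Cd209a in monocytes was -1.55. In S4, 3 of 144 monocytes were positive for Cd209a, and 1 cell held 27 of the 35 UMIs. Without S2, which also leaves 1 Adar1-null library, the change of Mgl2 in Vcam1 Lpl macrophages was 2.38.

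Genes around the lectins were taken as lists over the whole infiltrate, and none of their genes passed edgeR's test with Benjamini-Hochberg adjustment. A list of myeloid lectin receptors, nearly all C-type lectins, held 20 tested genes besides the members. Of these, 4 had a positive estimate, with a median of -0.32, against 0.01 over all genes. Those of lowest p were Siglec1 (-0.82 ± 0.11) and Asgr2 (-1.28 ± 0.29). Siglec1, a sialic acid receptor of macrophages, is not itself a C-type lectin. It had 5.29 and 5.69 CPM in Adar1-null libraries, against 9.42 and 9.09 CPM in control libraries. The list of 10 macrophage markers took 0.569% and 0.512% of UMIs in Adar1-null libraries, against 0.791% and 1.76% in control libraries, and its part in these medians was not tested. Within gates, 6 of 11 receptors were positive in monocytes (median 0.0082), 4 of 11 in the monocyte-macrophage gate (-0.072), 8 of 13 in Vcam1 Lpl macrophages (0.09) and 7 of 13 in other macrophages (0.12). The median over all genes in these gates was -0.0048, -0.0018, 0.0014 and -0.0089, in the same order. Of 13 C-type lectin signalling genes 5 were positive (median -0.10), and those of lowest p were the adaptor Tyrobp (-0.44 ± 0.10) and the kinase Syk (-0.41 ± 0.10). Of 12 lectin ligand and O-glycan genes 6 were positive (median -0.02), and those of lowest p were the glycosyltransferase genes Gcnt1 (-0.42 ± 0.15) and St6galnac4 (-0.24 ± 0.10). Of 19 interleukin-4 and alternative activation genes 8 were positive (median -0.24), and those of lowest p were the scavenger receptor Msr1 (-0.45 ± 0.08) and the transcription factor Irf4 (0.73 ± 0.21).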

How the data were processed

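The authors deposited raw UMI counts (whole numbers) as 1 matrix of genes by cell barcodes that joins the 4 libraries. Build mm10 and the tools Seurat 2.2.0 and Cell Ranger are named in the submitters' processing notes; other settings were not given in the sources used. Per the labels, libraries were made with the 10x 3′ kit v2. Barcode names give the group but no replicate number, and no label says that libraries are separate animals, so p-values measure the spread between these libraries, which may be technical.

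Barcodes under 500 genes or over 10% mitochondrial UMIs (161) and then doublets with a Scrublet score of at least 0.1 (108; the automatic threshold marked 36) were removed (scanpy 1.11.5). No correction was made for free RNA; melanoma, T or NK gates serve as its measure. Gate minimums and joined gates were set after seeing the marker counts, and the members and lists were chosen with earlier results of these data known. UMIs were summed per gate and library, since cells are not replicates, and gates with at least 50 cells in every library were tested (20 as an addition made after seeing the data, for the resident, cDC2, migratory dendritic and Arg1 Spp1 gates). T or NK, melanoma and stromal gates were not tested, and no member passed the filter in migratory dendritic cells. The test was edgeR 4.0.16 (R 4.3.3): TMM, default filter, robust quasi-likelihood, Benjamini-Hochberg adjustment over all genes tested, threshold 0.05; it was tested on simulated data. DESeq2 1.42.0, no filter, left-out libraries, all barcodes, stricter gates and Leiden clusters made without the members (leidenalg 0.10.2) were alternatives. Differences between gates were tested as an interaction with library as a block. The standard error of a log2 change (±) was derived from edgeR's test, as the absolute change divided by the square root of the F statistic. Co-detection counted cells with at least 1 UMI, and thinning to 4000 UMIs left out 17 cells of S1. Named were all members, the 3 genes most like each, and the 2 genes of lowest p of each list. Sequences are from RefSeq. Shares carry exact (Clopper-Pearson) intervals, which cover counting error only.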

Additional observations from a re-analysis of the deposited data

Results flagged for a closer look

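The response of Mgl2 differed between cDC2 and cells with both monocyte and macrophage markers. The log2 change was -0.13 in cDC2 and 2.82 in the other gate, a difference of -2.97 ± 0.41 (adjusted p = 0.000974 by edgeR's interaction test with library as a block and Benjamini-Hochberg adjustment over 5604 genes, of which 3 passed). This used at least 48 cells per gate and library. Without the cell of most Mgl2 UMIs in each library of the monocyte-macrophage gate the difference was -2.25 ± 0.52 and did not pass (adjusted p = 0.277 by the same test). In the same test of cDC2 against resident, Vcam1 Lpl, Arg1 Spp1 and other macrophages, and of the monocyte-macrophage gate against monocytes (1.72 ± 0.58, adjusted p = 1 by edgeR), no member passed. In cDC2 clusters made without the members the change of Mgl2 was -0.51 ± 0.23.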

How the results depend on the processing

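No paired analysis was possible because the barcode names carry none of the labels' replicate numbers. Over 72 results, 394 alternative values were compared. Of these, 324 kept their direction and side of the threshold or moved by less than the spread between libraries, and 55 moved further. A further 12 changed direction, 2 came past the threshold and 1 was no longer past it. For counts of genes or members, the ratio to the main count took the place of the spread, and any change from 0 was taken as moved. In the whole infiltrate, genes called numbered 6 higher and 87 lower by DESeq2 (1 member, Cd209b, at -2.51) and 1 lower with no filter; leaving out a library gave 0 to 5 higher and 0 to 135 lower, and -0.18 to 0.53 for Cd209a and -0.31 to 0.47 for Mgl2. With no filter, 73, 34, 43, 86, 13 and 19 genes were called in monocytes, monocyte-macrophage, Vcam1 Lpl and other macrophages, cDC2 and resident cells. DESeq2 called 4 in monocyte-macrophage and 1 in Vcam1 Lpl cells, and the stricter gate 1 in monocytes. Leaving out a library gave 0 to 307, 2 to 169, 0 to 113, 0 to 63, 2 to 75 and 0 to 73 genes in these gates, the most without S1 in Vcam1 Lpl and without S3 in the others, and 0 to 1 member in monocytes, Vcam1 Lpl and resident cells. Without the cell of most Mgl2 UMIs per library, 0 genes, and so 0 members, were called in the monocyte-macrophage gate (Mgl2 2.11).

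Within cDC2, clusters made without the members gave -0.51 ± 0.23 for Mgl2 and -0.54 ± 0.27 for Cd209d, neither called, and Cd209a was at -0.19 there and at -0.14 to 0.15 with a library left out. Clec10a was at -0.34 in the stricter gate, -0.38 in the clusters and -0.045 to 0.25 with a library left out there, and at -0.86 to 0.29 in resident cells. Clusters gave 770 CPM for Cd209a and 191 for Mgl2 in cDC2 and 818 for Cd209f and 311 for Cd209g over all resident cells, which the clusters do not divide (721 and 273 in the gates), and a cDC2 share 0.628 percentage points higher in Adar1-null libraries. The stricter gate gave 237 CPM for Mgl2 in cDC2, and UMIs in 35.8% of cDC2 (Mgl2), 28.5% (Cd209d) and 90.8% (Clec10a) of resident cells. Thinned shares were 16.9% (Cd209d) and 22.6% (Mgl2) in cDC2, and 20.3% (Cd209d) and 76.1% (Clec10a) in resident cells. With at least 2 UMIs, 97.6% of Cd209g cells held Cd209f, 48.2% of Cd209a cDC2 held Clec10a and 89.1% of Mgl2 resident cells held Clec10a. Thinned, 51.7% of Mgl2 cDC2 and 88.6% of Mgl2 resident cells held Clec10a. Over all resident cells, 72.8% held at least 2 Clec10a UMIs, and 76.1% held Clec10a when thinned. The cause of these differences was not tested.

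Without 1 library the difference in the resident share lay between -25.3 and -5.70 percentage points. The group comparisons rest on 2 libraries each. Resident cells were few in S2 (20) and many in S4 (759), so pooled levels and shares in the resident gates weigh S4 most.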

Other observations

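UMIs of Cd209a were also counted outside dendritic cells and macrophages. Of 1469 T or NK cells, 27 had at least 2 Cd209a UMIs, and 16 of these (59.3%) had at least 2 cDC2 markers, against 4.55% of the 1430 cells with no Cd209a UMI. Clec10a was found in 14 of the 27 cells, and 15 lay in the same Leiden cluster of 207 cells. No T or NK cell had 2 or more Cd209f UMIs. Cells in no gate held 16.7% of the Cd209a UMIs and 11.2% of the Mgl2 UMIs, and mixed cells held 6.14% of the Cd209f UMIs. Of the array's other genes, Cd209e had 108 UMIs and Cd209c 16 UMIs in all kept cells.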
